A study of Mus musculus with 6 samples.

Results

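Leydig cells lie between the seminiferous tubules of the testis and make testosterone when luteinizing hormone (LH) from the pituitary binds its receptor, which raises cAMP in the cell. Cholesterol is then carried into the mitochondria by StAR and cleaved there by CYP11A1, which takes its electrons from ferredoxin and ferredoxin reductase. The product is converted to an androgen precursor by 3β-hydroxysteroid dehydrogenases and by CYP17A1, which takes its electrons from POR, and HSD17B3 makes testosterone in the last step. The 9 genes examined here belong to this route and the LH response, and the 3β-hydroxysteroid dehydrogenase genes are not among them. They are the receptor gene Lhcgr, the cholesterol carrier gene Star, the enzyme genes Cyp11a1, Cyp17a1 and Hsd17b3, the electron carrier genes Fdx1, Fdxr and Por, and Insl3, which encodes a peptide hormone of Leydig cells. They were named for their known function, with earlier results of these data known, and were found among the 55536 genes of the table by matching Ensembl identifiers to GRCm38 symbols. All 9 had enough counts to be tested, and 0 of the 9 lie on chromosome 4, which carries the Padi genes.

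RNA was sequenced from whole testes of 4-month-old mice, with 2 mice and so 2 libraries for each genotype: WT (FVB/NJ), the Padi2 single KO (P2KO) and the Padi2/Padi4 double KO, labelled P2P4DKO and called DKO here. In P2KO mice a gene trap with LacZ and neomycin sequence replaced part of exon 1 of Padi2, and the DKO line carries the same trap together with a small CRISPR deletion in exon 1 of Padi4. The DKO mice come from 1 homozygous line, and all 3 genotypes share the FVB/NJ background. The study asked whether the loss of these citrullinating enzymes alters hormone signaling in males, and these genes report on the step of that axis that lies in the testis. The submitters call the 2 libraries of a genotype biological replicates. The p-values here rest on the spread between such pairs, drawn toward the spread of other genes. In the fit of all 6 libraries a gene leaves 3 residual degrees of freedom of its own, so the p-values lean on that sharing. Where 1 library is left out, its genotype keeps a single library, and the spread comes from the other pairs.

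Total counts ran from 21939393 to 27306679 per library. Scaling used the TMM method of edgeR, and the normalized counts given below are counts at a common library size, the geometric mean of the 6 scaled totals. All 6 libraries were fitted together by edgeR's quasi-likelihood test over 20744 genes, and a gene with a Benjamini-Hochberg adjusted p under 0.05 is referred to as called. Log2 fold changes are given with their standard error (SE). The targeted genes check the labels only in part. Padi2 had 47 and 64 counts in WT, 100 and 55 in P2KO, and 59 and 83 in DKO, and Padi4 had 20 and 43 in WT, 11 and 10 in P2KO, and 4 in each DKO library. Padi4 was lower in DKO than in WT (log2 fold change -2.94, SE 0.513, adjusted p = 2.78e-04 by edgeR). It was also lower in both P2KO libraries than in both WT libraries (log2 fold change -1.63, adjusted p = 0.0959 by edgeR), without being called. For DKO against P2KO it had a log2 fold change of -1.31 (adjusted p = 0.404 by edgeR), so Padi4 did not separate those labels at the threshold. The Padi2 counts were not lower in either knockout (log2 fold change 0.40 for P2KO and 0.35 for DKO, adjusted p = 0.686 and 0.575 by edgeR), so a count over the whole gene does not bear out the Padi2 labels. The trap replaced only part of exon 1, and which exons those reads came from was not tested, so these counts do not settle whether Padi2 was lost. P2KO and DKO here therefore mean the libraries labelled so, for every direction given. In RNA of a whole testis, fewer Leydig cells and less RNA per Leydig cell cannot be told apart.

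In DKO testes 3 of the 9 genes rose against WT, the cholesterol carrier gene Star 1.42-fold and the P450 genes Cyp17a1 1.24-fold and Cyp11a1 1.21-fold. The receptor gene Lhcgr did not pass the threshold and had the lowest log2 fold change of the 9, at -0.38. Thus 3 of the 9 genes were called higher and 0 lower, while 3.22% of all tested genes were called, 2.06% higher and 1.16% lower. Because the 9 were chosen with results in view, these shares are a description. The rises of Cyp11a1 and Cyp17a1 rested on library DKO 1, and the calls depended on the test: DESeq2 on all 6 libraries called 0 of the 9 genes, and DESeq2 on the WT and DKO libraries called Star only. Both DKO libraries had more Star than either WT library, and the call of Star by edgeR held with each of the 6 libraries left out in turn.

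**Figure D1:**
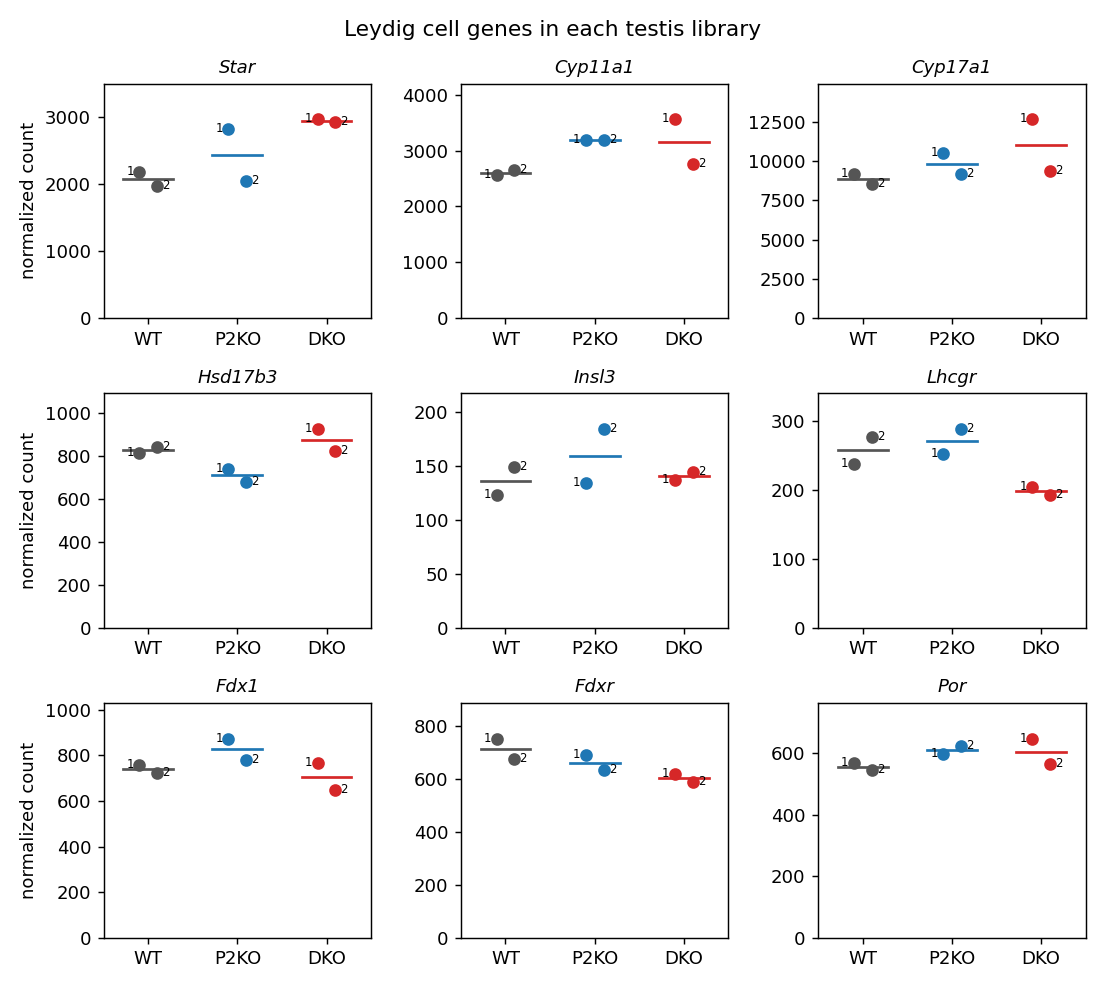
Normalized counts (y axis, from 0) of the 9 genes in each of the 6 libraries, with genotype on the x axis. Each point is 1 mouse, marked with its replicate number, and each horizontal line is the mean of 2 mice. The DKO points lie above the WT points for Star, Cyp11a1 and Cyp17a1 and below them for Lhcgr and Fdxr.

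Levels were first set side by side per length, as TMM-scaled CPM divided by the exon length in kilobases. Cyp17a1 was the most abundant of the 9 genes, with a mean of 146 over the 6 libraries and a range from 126 to 186. Cyp11a1 (25.3), Star (24.6) and Hsd17b3 (23.5) followed, and the ranges of neighbours in that order overlapped. Fdx1 (9.95), Fdxr (9.60) and Insl3 (9.5) overlapped in the same way, Por had a level of 5.99, and Lhcgr was the lowest at 1.29. The levels of Cyp17a1, Hsd17b3, Insl3 and Por lay above that of the next gene in every library. The level of Insl3 carries a limit, because 404 of the 623 bases of its exons are shared with exons of Jak3 on the same strand. Reads on shared bases cannot be given to either gene, while the level divides by all 623 bases. The level of Insl3 is therefore likely too low by an amount that was not tested, and its place in this order is uncertain. Cyp11a1 shares 145 bases of exon with the lincRNA gene Gm17322 on the same strand.

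Lhcgr, which encodes the receptor through which LH acts, lies on chromosome 17 from 88716481 to 88791990. Its normalized count was 238 and 276 in WT, 252 and 287 in P2KO, and 204 and 193 in DKO. Both DKO libraries were below all 4 others, and the WT and P2KO libraries overlapped. The log2 fold change was -0.38 for DKO against WT (SE 0.131, adjusted p = 0.128 by edgeR) and -0.44 for DKO against P2KO (SE 0.130, adjusted p = 0.0982), so that neither was called. The 95% interval of the log2 difference between DKO and WT ran from -0.64 to -0.11, before any adjustment for the number of genes. With either WT library left out, or with edgeR on the DKO and P2KO libraries alone, the difference between DKO and P2KO passed the threshold (adjusted p from 0.0388 to 0.0488).

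Star encodes the protein that brings cholesterol to the inner mitochondrial membrane, and its transcription is raised by LH within Leydig cells. The gene lies on chromosome 8 from 25806555 to 25815982. Its normalized count was 2175 and 1967 in WT, 2825 and 2054 in P2KO, and 2968 and 2923 in DKO. The DKO libraries differed from each other 1.02-fold, whereas the P2KO libraries differed 1.38-fold, and P2KO 2 lay between the WT libraries. For DKO against WT the log2 fold change was 0.51 (SE 0.0857, adjusted p = 1.59e-04 by edgeR). It ran from 0.44 to 0.58 with each library left out in turn. DESeq2 on all 6 libraries gave the same log2 fold change of 0.51 with a standard error of 0.196 and an adjusted p of 0.186, and DESeq2 on the WT and DKO libraries gave a standard error of 0.0824 and an adjusted p of 2.30e-07. For P2KO against WT the log2 fold change was 0.24 (SE 0.0861, adjusted p = 0.352 by edgeR). It was -0.01 without P2KO 1, and 0.45 without P2KO 2, where it was called (adjusted p = 0.00242). Without WT 1 it was called as well, with a log2 fold change of 0.31 (adjusted p = 0.0175). For DKO against P2KO it was 0.27 (adjusted p = 0.127) with all libraries and 0.52 without P2KO 1, where it was called (adjusted p = 2.08e-04). It was also called there without WT 1 or WT 2, with no filter on low counts and with edgeR on the DKO and P2KO libraries alone.

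Cyp11a1, the side-chain cleavage enzyme that makes pregnenolone, lies on chromosome 9 from 58006411 to 58027023. Its normalized count was 2564 and 2644 in WT, 3181 and 3187 in P2KO, and 3558 and 2751 in DKO. All 4 knockout libraries were above both WT libraries, with the P2KO pair closest to each other. The log2 fold change was 0.28 for DKO against WT (SE 0.0762, adjusted p = 0.0324 by edgeR) and 0.29 for P2KO against WT (SE 0.0761, adjusted p = 0.102). Among the settings that ended the call in DKO were leaving out DKO 1, at a log2 fold change of 0.07 (adjusted p = 0.811), upper-quartile scaling (adjusted p = 0.0524), edgeR on the WT and DKO libraries alone (adjusted p = 0.0765), and DESeq2 on all 6 libraries (adjusted p = 0.526) or on the WT and DKO libraries. In P2KO the gene stood near the threshold from the other side. It was called there without either WT library or either DKO library, without any filter on low counts, and with DESeq2 on the WT and P2KO libraries, at adjusted p from 0.00512 to 0.0494. The 2 knockout comparisons share the WT libraries. DKO and P2KO differed by a log2 fold change of -0.01, with a 95% interval from -0.17 to 0.14.

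Neither electron carrier gene of CYP11A1 was called in any comparison. Fdx1, which encodes the ferredoxin, lies on chromosome 9 from 51943306 to 51963556, and its normalized count was 757 and 723 in WT, 872 and 781 in P2KO, and 765 and 647 in DKO. The DKO libraries lay on either side of the WT libraries, and the P2KO libraries were above both. Fdxr, which encodes the reductase that feeds ferredoxin, lies on chromosome 11 from 115268024 to 115277050, and had normalized counts of 751 and 677 in WT, 689 and 636 in P2KO, and 621 and 591 in DKO. Both DKO libraries had less Fdxr than the other 4 libraries. The log2 fold change between DKO and WT was -0.06 for Fdx1 (SE 0.0898, adjusted p = 0.829 by edgeR) and -0.23 for Fdxr (SE 0.0889, adjusted p = 0.178). The 95% intervals ran from -0.25 to 0.12 and from -0.41 to -0.05.

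Cyp17a1, which carries out the 17α-hydroxylase and 17,20-lyase steps, lies on chromosome 19 from 46667165 to 46673172. Its normalized count was 9205 and 8547 in WT, 10524 and 9146 in P2KO, and 12655 and 9389 in DKO. The highest library was DKO 1, while DKO 2 was below P2KO 1 and close to WT 1. The log2 fold change between DKO and WT was 0.31 (SE 0.0803, adjusted p = 0.0193 by edgeR), and it was 0.08 without DKO 1 (adjusted p = 0.805). DESeq2 on all 6 libraries gave a standard error of 0.199 and an adjusted p of 0.662. For P2KO against WT the edgeR value was 0.15 (SE 0.0803, adjusted p = 0.626), and for DKO against P2KO it was 0.16 (adjusted p = 0.415), which without DKO 2 became 0.36 and was called (adjusted p = 0.0192). Por encodes the reductase of the microsomal P450 enzymes in most cell types and is not particular to Leydig cells. It lies on chromosome 5 from 135670033 to 135735326, with normalized counts of 568 and 545 in WT, 598 and 624 in P2KO, and 647 and 564 in DKO. DKO 2 lay between the WT libraries, and the log2 fold change was 0.12 for DKO against WT (SE 0.0925, adjusted p = 0.613 by edgeR) and 0.13 for P2KO against WT (SE 0.0922, adjusted p = 0.742).

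Hsd17b3, the testicular enzyme that turns androstenedione into testosterone, lies on chromosome 13 from 64058266 to 64089230. Its normalized count was 813 and 840 in WT, 740 and 679 in P2KO, and 923 and 821 in DKO. The P2KO libraries were the 2 lowest of the 6, and the WT and DKO libraries overlapped. The log2 fold change between P2KO and WT was -0.22 (SE 0.0847, adjusted p = 0.426 by edgeR), with 0.08 for DKO against WT (SE 0.0835, adjusted p = 0.759) and 0.30 for DKO against P2KO (SE 0.0843, adjusted p = 0.0776). The last of these was called without either WT library, with edgeR on the DKO and P2KO libraries alone and with a correction for gene length, at adjusted p from 0.015 to 0.0244. Insl3, whose product acts on the gubernaculum before birth and on germ cells later, lies on chromosome 8 from 71689214 to 71690575. With 109 to 173 counts per library it was the least counted of the 9 genes, and its normalized count was 123 and 149 in WT, 134 and 184 in P2KO, and 137 and 144 in DKO. The genotypes overlapped, and the 95% interval of the log2 difference between DKO and WT by edgeR ran from -0.30 to 0.38, before any adjustment for the number of genes. The counts of Insl3 also leave out reads on the bases shared with Jak3.

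The stretches upstream of 3 members with transcripts that in the testis come largely from Leydig cells are printed here because they stand at the start of the LH response, at the last step of testosterone synthesis and at the second hormone of these cells. They come from RefSeq (GRCm38.p6), which held windows for 7 of the 9 genes and not for Star or Cyp17a1, and in these 3 the RefSeq start lay within 38 bases of the Ensembl start. Each is written 5′ to 3′ on the strand of the gene and ends before the more upstream of both starts. Capitals mark AGGTCA, the half-site bound by NR5A1 and other nuclear receptors. Both strands were searched for AGGTCA, for the longer NR5A1 forms AAGGTCA and AAGGCCA, of which the first contains AGGTCA, and for TGACG, the half-site of the cAMP response element.
Lhcgr, chr17:88792015-88792264, minus strand: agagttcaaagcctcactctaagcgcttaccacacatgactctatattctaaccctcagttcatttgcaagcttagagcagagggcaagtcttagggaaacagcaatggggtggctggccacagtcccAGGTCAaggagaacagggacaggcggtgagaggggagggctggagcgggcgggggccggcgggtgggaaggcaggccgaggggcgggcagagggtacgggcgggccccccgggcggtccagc
Hsd17b3, chr13:64089231-64089451, minus strand: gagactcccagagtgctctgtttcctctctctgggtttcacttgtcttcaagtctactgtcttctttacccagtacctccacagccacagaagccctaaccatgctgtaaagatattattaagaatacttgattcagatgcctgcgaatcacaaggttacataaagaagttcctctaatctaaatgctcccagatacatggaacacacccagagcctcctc
Insl3, chr8:71689002-71689213, plus strand: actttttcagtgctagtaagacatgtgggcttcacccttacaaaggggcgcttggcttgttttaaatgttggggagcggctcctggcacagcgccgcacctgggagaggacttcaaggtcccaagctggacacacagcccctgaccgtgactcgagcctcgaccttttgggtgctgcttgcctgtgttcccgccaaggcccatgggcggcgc
Among the 3 printed windows AGGTCA was found once, in Lhcgr, beginning 122 bases before the RefSeq start, without the further A of the longer form. Neither longer form was found in any of the 8 member windows, and TGACG was in none of the 3 printed. Of the windows not printed, 1 of the Cyp11a1 windows held AGGTCA and the other TGACG, and both lie kilobases from the Ensembl start of that gene. For comparison, 14.0% of the 32851 RefSeq windows of 250 bases held AGGTCA, 9.09% held AAGGTCA or AAGGCCA, and 17.8% held TGACG. A match is a description of these letters and says nothing of binding in these testes.

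In P2KO testes 0 of the 9 genes were called by edgeR, while 0.337% of all tested genes were called, 0.198% higher and 0.14% lower. The unadjusted p was under 0.05 in 3 of the 9 (Star, Cyp11a1 and Hsd17b3), against 8.57% of all tested genes, and DESeq2 called 0 on all 6 libraries and 1, Cyp11a1, on the WT and P2KO libraries. Cyp11a1, Fdx1 and Por were higher in both P2KO libraries than in both WT libraries, and Hsd17b3 was lower. Groups that do not overlap were found for 37.5% of all tested genes in this comparison, 18.7% higher and 18.8% lower. Over the 9 genes the log2 fold changes had a median of 0.15, and that of all tested genes was 0.00353.

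Between DKO and P2KO, 0 of the 9 genes were called by edgeR or by DESeq2 in either form, and 1.21% of all tested genes were called by edgeR, 0.607% higher and 0.598% lower. The unadjusted p was under 0.05 in 5 of the 9, against 11.8% of all tested genes, upward for Star, Cyp17a1 and Hsd17b3 and downward for Lhcgr and Fdx1. Star and Hsd17b3 were higher and Lhcgr, Fdx1 and Fdxr lower in both DKO libraries than in both P2KO libraries, against 42.8% of all tested genes whose groups did not overlap, 21.1% higher and 21.6% lower. For DKO against WT the groups did not overlap for Star, Cyp11a1 and Cyp17a1 (higher) and for Lhcgr and Fdxr (lower), against 43.2% of all tested genes, 21.6% in each direction. The unadjusted p was under 0.05 for the same 5 genes, against 14.1% of all tested genes. Over the 9 genes the log2 fold changes in that comparison had a median of 0.08, and that of all tested genes was -0.0048. The median exon length of the 9 genes was 3104 bases and that of all tested genes 3330 bases, and with a correction for gene length 3 of the 9 genes were again called for DKO against WT.

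**Figure D2:**
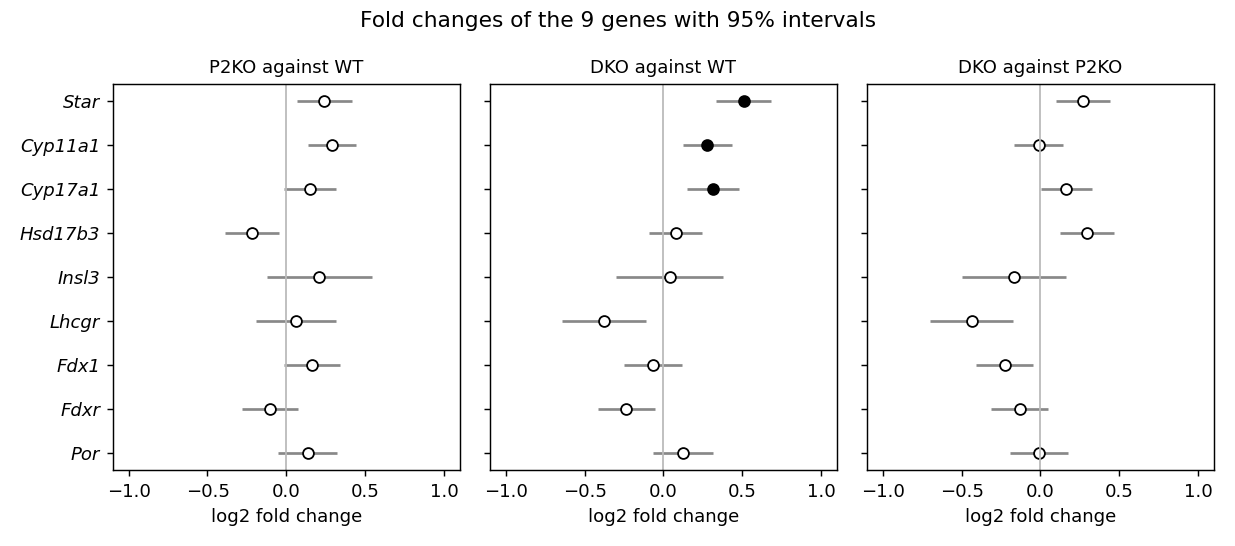
Log2 fold changes (x axis) of the 9 genes (y axis) in the 3 comparisons, with lines for the 95% interval of each gene before adjustment over genes. Filled points are called at an adjusted p under 0.05 by edgeR, and these are Star, Cyp11a1 and Cyp17a1 in DKO against WT.

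The spread between the mice of a genotype was compared with that of other genes. In DKO the median ratio of the higher to the lower library was 1.13 over the 9 genes, against 1.06 over 11142 tested genes in the same range of counts. The ratios for Cyp17a1 (1.35), Cyp11a1 (1.29) and Fdx1 were above 1.17, the 90th percentile of those genes. DKO 1 had the higher normalized count for 8 of the 9 genes and for 53.7% of those other genes. In P2KO the ratios for Star (1.38) and Insl3 (1.38) were above the 90th percentile of 1.17 (median of the 9 genes 1.12), with Star higher in P2KO 1 and Insl3 higher in P2KO 2. In WT the median was 1.08, and 1 gene, Insl3 (1.21), was above the 90th percentile of 1.19. These values describe 3 pairs of mice.

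Ratios of genes within a library do not depend on how the libraries are scaled. The level of Lhcgr per length was 0.0588 and 0.0754 of that of Star in WT, 0.0480 and 0.0753 in P2KO, and 0.0370 and 0.0355 in DKO. Both DKO ratios were below the other 4, and their mean was 0.540 of the WT mean. Star and Lhcgr had the highest and the lowest log2 fold change of the 9 genes for DKO against WT, so their ratio restates those values. The ratio of Fdx1 to Cyp11a1 was 0.457 and 0.423 in WT, 0.424 and 0.379 in P2KO, and 0.333 and 0.364 in DKO, again lowest in both DKO libraries. The ratio of Hsd17b3 to Cyp17a1 was 0.176 and 0.196 in WT and between 0.140 and 0.174 in the 4 knockout libraries. The ratio of Star to Cyp11a1 overlapped between all genotypes, from 0.753 in P2KO 2 to 1.24 in DKO 2. These ratios are part of a larger set that was computed, and they are given without a test. With 2 mice against 2 an exact permutation test cannot give a two-sided p below 0.333.

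**Figure D3:**
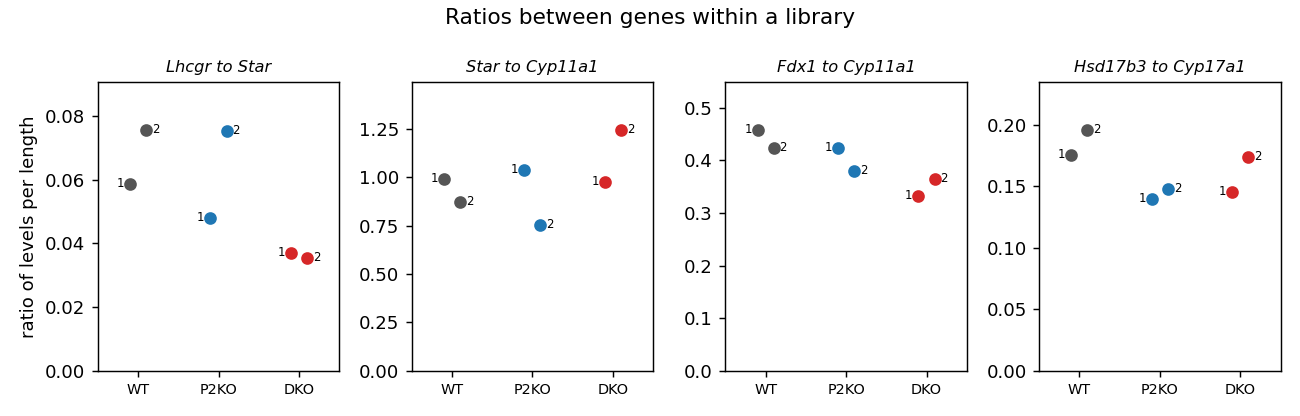
Ratios of the levels per length of pairs of genes (y axis, from 0) in each library by genotype, with replicate numbers beside the points. The Lhcgr to Star ratio is 0.0370 and 0.0355 in the DKO libraries and 0.0480 or more in the other 4.

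Of 11 other genes of steroid synthesis, transport and breakdown, 9 were tested. For DKO against WT 1 was called higher and 1 lower, against 2.06% and 1.16% of all tested genes. For DKO against P2KO 1 was called higher and 0 lower, against 0.607% and 0.598% of all tested genes. For DKO against WT these were Hsd3b6 and Hsd3b1, related genes for 3β-hydroxysteroid dehydrogenases between which reads may be hard to divide, with log2 fold changes of 0.41 (SE 0.0715, adjusted p = 3.08e-04 by edgeR) and -0.46 (SE 0.0810, adjusted p = 2.73e-04). Their levels per length in WT, 36.6 ± 0.818 for Hsd3b6 and 46.8 ± 5.24 for Hsd3b1 (SD, n = 2), exceeded those of Star and Cyp11a1, and without DKO 1 neither was called for DKO against WT (adjusted p = 0.0725 for Hsd3b6 and 0.0860 for Hsd3b1), whereas Hsd3b6 for DKO against P2KO had a log2 fold change of 0.63 (SE 0.0720, adjusted p = 2.93e-07) and an adjusted p of at most 0.00114 under every alternative run. Sult1e1, the estrogen sulfotransferase of Leydig cells, had normalized counts of 579 and 604 in WT, 493 and 427 in P2KO, and 596 and 543 in DKO. Its log2 fold change for P2KO against WT was -0.36 (adjusted p = 0.115 by edgeR), and like Hsd17b3 it was lowest in both P2KO libraries. For DKO against WT the 9 tested genes had a median log2 fold change of 0.02, and for P2KO against WT it was 0.01. For P2KO against WT 0 were called by edgeR or DESeq2, against 0.337% of all tested genes by edgeR, and 4 had an unadjusted p under 0.05 by edgeR. Over all tested genes the latter share was 8.57%, with 14.1% for DKO against WT and 11.8% for DKO against P2KO. These shares stand beside the lists below as well.

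Of 13 genes of cAMP signalling downstream of the LH receptor, all were tested and 0 were called by edgeR or by DESeq2 in any of the 3 comparisons, with 0 at an unadjusted p under 0.05 by edgeR. Many of them are also expressed in germ cells. Their log2 fold changes for DKO against WT ran from -0.10 to 0.38, with a median of 0.08. The most abundant per length were Pde8a, a cAMP phosphodiesterase gene (65.4 over the 6 libraries), and Prkar1a (55.2) and Prkaca (42.0), which encode subunits of protein kinase A. Of 10 genes for regulators of Leydig and other somatic cells, 9 were tested and 0 were called by edgeR or DESeq2 in any comparison, with 1 at an unadjusted p under 0.05 for DKO against WT, 1 for P2KO against WT and 0 for DKO against P2KO. Nr5a1, which encodes the nuclear receptor that drives steroidogenic genes, had a log2 fold change of 0.03 for DKO against WT, with a 95% interval from -0.13 to 0.19. Its level per length was 8.41 ± 0.474 in WT, 8.79 ± 0.183 in P2KO and 8.59 ± 0.335 in DKO (SD, n = 2).

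Among 4 other genes known from Leydig cells, 1 was called, Ptgds, which encodes a prostaglandin D synthase that is also made by other cells of the testis. It was called lower for DKO against WT and for DKO against P2KO, against 1.16% and 0.598% of all tested genes. Its normalized count was 3837 and 3723 in WT, 4226 and 4372 in P2KO, and 3097 and 3269 in DKO, with no overlap between any of the genotypes. The log2 fold change was -0.25 for DKO against WT (SE 0.0608, adjusted p = 0.0130 by edgeR), -0.43 for DKO against P2KO (SE 0.0606, adjusted p = 1.48e-05) and 0.19 for P2KO against WT (SE 0.0602, adjusted p = 0.274). DESeq2 called it in the same 2 comparisons. The call for DKO against WT was lost without DKO 1 (adjusted p = 0.220), without DKO 2 (adjusted p = 0.0649) and with a correction for gene length (adjusted p = 0.0807), while the log2 fold change ran from -0.29 to -0.21 with 1 library left out. The other 3 genes, among them Fabp3 with a level of 76.3 per length, were not called in any comparison. Of 5 paracrine genes, which include the INSL3 receptor gene Rxfp2 and the Sertoli cell signal gene Dhh, 0 were called by edgeR or DESeq2 in any comparison, with 2 at an unadjusted p under 0.05 by edgeR for DKO against WT and 1 in each of the other comparisons.

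Markers of other cells of the testis were followed in the same libraries. The summed normalized count of the 9 genes was 102% and 97.5% of the WT mean in WT, 118% and 105% in P2KO, and 134% and 107% in DKO. Cyp17a1 weighs most in this sum, with 9205 of 17194 in WT 1 and 12655 of 22477 in DKO 1. Of 8 germ cell markers, 2 were called lower in DKO, Tnp1 (log2 fold change -0.25, adjusted p = 0.0130 by edgeR) and Prm1 (-0.22, adjusted p = 0.0302), against 1.16% of all tested genes. The 8 markers were evenly divided, with 4 log2 fold changes above 0 and 4 below, and their median was 0.0055. The summed normalized count of those 8 markers, in which protamine and transition protein transcripts weigh most, ran from 98.7% to 101% of the WT mean in WT, from 83.8% to 95.7% in P2KO and from 89.7% to 89.9% in DKO. Both calls were lost without either DKO library, with a correction for gene length and with DESeq2 on all 6 libraries, and that of Prm1 also without WT 2. With 1 library left out the log2 fold changes ran from -0.30 to -0.21 for Tnp1 and from -0.27 to -0.16 for Prm1. Of 8 Sertoli, 5 peritubular myoid, 7 macrophage and 5 endothelial markers, 0 were called by edgeR or DESeq2 in any comparison. By edgeR, 3 of these had an unadjusted p under 0.05 for P2KO against WT, 6 for DKO against P2KO and 2 for DKO against WT, both endothelial, and 4 of the 4 endothelial markers tested were higher in both DKO libraries than in both WT libraries, against 21.6% of all tested genes. The endothelial sum ran from 95% to 105% of the WT mean in WT, from 112% to 113% in P2KO and from 127% to 136% in DKO. The log2 fold changes of the 8 Sertoli markers were all above 0 for P2KO against WT (median 0.13, 3 without overlap, against 18.7% of all tested genes) and all below 0 for DKO against P2KO (median -0.16, 3 without overlap, against 21.6%). Globin and fat genes ran from 82.6% to 117% in WT, from 50.5% to 95.3% in P2KO and from 64.3% to 79.4% in DKO. Of the 4 tested, 3 had an unadjusted p under 0.05 by edgeR for DKO against WT, against 14.1% of all tested genes. The globin gene Hbb-bs was near the threshold there (log2 fold change -0.84, SE 0.246, adjusted p = 0.0504 by edgeR). Of 5 genes known from the adrenal cortex, Cyp11b1 had 0 counts in every library, Cyp11b2 had 2 counts in WT 1 and 0 elsewhere, and Mc2r had 1 count in DKO 1 and 0 elsewhere. The other 2, Cyp21a1 and Mrap, had 95 to 141 and 56 to 120 counts and were not called. The adrenal sum was 92.8% and 107% of the WT mean in WT, 103% and 109.5% in P2KO, and 124% and 111% in DKO. The part of these differences between libraries in the values of the 9 genes was not tested.

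**Figure D4:**
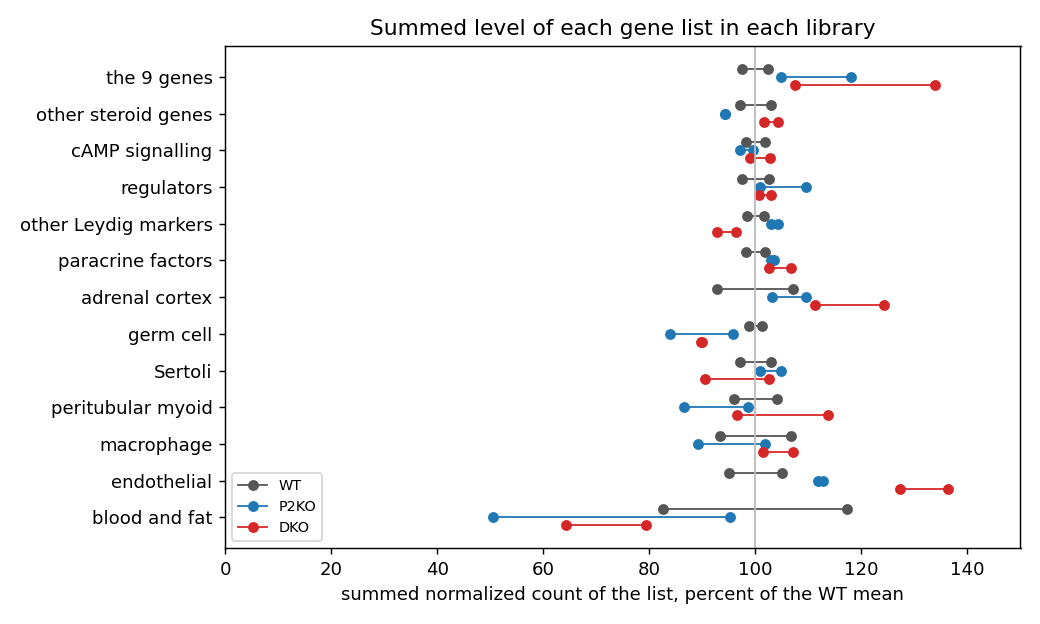
Summed normalized count of each gene list as a percent of its WT mean (x axis, from 0), with 1 row for each list and 2 joined points for the 2 mice of each genotype. The 9 genes, with Cyp17a1 weighing most, reach 134% in DKO 1, the endothelial list lies at 127% and 136% in DKO, and the germ cell sum, which is mostly Prm1, Prm2 and Tnp1, lies below 96% in all 4 knockout libraries.

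The profile of the 9 genes over the 6 libraries was scaled to a mean of 0 and an SD of 1 for each gene and averaged. The mean profile, scaled in the same way, was highest in DKO 1 (1.36) and lowest in DKO 2 (-1.22), so both its extremes are DKO mice. Cyp11a1 and Por were closest to that mean profile, with Euclidean distances of 0.912 and 1.07, and Fdxr and Hsd17b3 were farthest, at 3.24 and 3.18. Among 12742 other genes with a mean normalized count of at least 100, the nearest were Ndrg4 (0.333), Ufd1 (0.356), Sh3d21 (0.419), Cfap77 (0.472) and Zfp457 (0.516). Whether such distances are smaller than chance gives over 6 libraries and so many genes was not tested.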

How the data were processed

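The authors deposited 1 table of raw gene counts for the 6 testis libraries. Per the labels and the study's methods, reads were trimmed with Trim Galore and cutadapt and counted per gene by STAR on GRCm38 with Ensembl annotation. Versions and the strand setting are not given in the sources used here, and reads on exons of overlapping genes cannot be divided. The 55536 identifiers were named from GENCODE M21 (Ensembl 96).

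Low counts were filtered with filterByExpr (minimum count 10), scaling was by TMM, and all 6 libraries were fitted by genotype with edgeR 4.0.16 (R 4.3.3, limma 3.58.1) and its quasi-likelihood test. P-values were adjusted by Benjamini-Hochberg over the 20744 genes tested, and standard errors are the log2 fold change over the root of F. The steps were tested on simulated data. DESeq2 1.42.0, other scalings and filters, 2-genotype fits, a replicate block, leaving out each library, leaving out chromosome 4 and, chosen after seeing the data, a correction for gene length were the alternatives.

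The members and gene lists were chosen with earlier results of these data known, and the motifs after the windows were seen. Genes named outside the members were those called, the most abundant per list, Padi2 and Padi4, the 5 nearest profiles, and Jak3 and Gm17322, which share exon bases with members. Cyp11b1, Mc2r, Adcy9, Cd68 and Igf1 were named in addition, after their values were seen.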

Additional observations from a re-analysis of the deposited data

How the results depend on the processing

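For the 9 genes, the number called between P2KO and WT was 0, and it was 1 with no filter on low counts, 1 with DESeq2 on the libraries of both genotypes alone, and 0 to 2 with 1 library left out. Between DKO and WT it was 3, and it was 0 with DESeq2 on all 6 libraries, 1 with DESeq2 on both genotypes alone, 2 with upper-quartile scaling, with edgeR on both genotypes alone and with the replicate block, and 1 to 3 with 1 library left out. Between DKO and P2KO it was 0, and it was 1 with no filter, 3 with edgeR on both genotypes alone, 1 with the length correction and 0 to 3 with 1 library left out. The cause was not tested. The genes of the other lists called were 0, 5 and 2 in the same order of comparisons. With no filter they were 5 and 8 in the comparisons with WT, with DESeq2 on all 6 libraries 3 and with the length correction 2 for DKO against WT, and with edgeR on both genotypes alone 4 for DKO against P2KO. The 5 for P2KO against WT with no filter were Hba-a1, Hbb-bs, Prm1, Prm2 and Tnp1, all lower in P2KO. Leaving out 1 library gave 0 to 6, 0 to 8 and 2 to 5. Among the added calls were Adcy9 for DKO against WT and Cd68 for P2KO against WT, both without WT 1, Igf1 for DKO against P2KO without either WT library, and Vcam1 there without WT 2 or P2KO 1.

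Over all genes, 70, 668 and 250 were called. DESeq2 on all 6 libraries called 41, 403 and 162, and DESeq2 on both genotypes alone called 40 for P2KO against WT and 296 for DKO against WT. For P2KO against WT, no filter gave 140, the block 45 and leaving out chromosome 4 gave 24, and for DKO against P2KO edgeR on both genotypes alone gave 579. Leaving out 1 library gave 53 to 311, 250 to 1065 and 108 to 622.

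With 1 library left out, the log2 fold change of P2KO against WT changed sign for Star (-0.011 to 0.45), Lhcgr (-0.040 to 0.18) and Insl3 (-0.032 to 0.43). For DKO against WT it did so for Fdx1 (-0.20 to 0.049), Hsd17b3 (-0.016 to 0.16) and Insl3 (-0.090 to 0.19). For DKO against P2KO it did so for Cyp11a1 (-0.21 to 0.16), Cyp17a1 (-0.071 to 0.36), Insl3 (-0.39 to 0.077), Por (-0.12 to 0.084), Prm1 (-0.13 to 0.11) and Tnp1 (-0.17 to 0.12), and the length correction gave 0.052 for Prm1 and 0.041 for Tnp1. None of these 12 differences was called with all libraries. The replicate numbers did not pair the samples, since the differences between replicates 1 and 2 correlated at -0.0572, 0.0574 and -0.0502 between genotypes over 20744 genes. With the replicate block Cyp11a1 for DKO against WT had a log2 fold change of 0.27 (adjusted p = 0.0716 by edgeR).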
